A study of Oryza sativa with 6 samples.

Results

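The Aux/IAA, ARF and GH3 genes, 3 families at the core of the response to the plant hormone auxin, were followed in rice leaves. A gene was a member when its symbol or a synonym in the rice RefSeq annotation carried an IAA, ARF or GH3 number, and when the array held a probe set assigned to that gene alone. This gave 52 of the 17905 genes with such a probe set: 26 of 28 annotated Aux/IAA genes, 17 of 23 ARF genes and all 9 GH3 genes. Leaf RNA of 4-week-old wild type rice (WT) was compared with leaf RNA of transgenic rice overexpressing OsCGA1 (OX), a GATA transcription factor that the series title links to chloroplast development. Each genotype had 3 biological replicates, each on its own 1-colour Affymetrix Rice Genome Array. All plants grew in chambers that were lit for 16 h at 28 °C and dark for 8 h at 23 °C. The cultivar, the promoter of the transgene and the number of transgenic lines are not given in the sources used here.

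Auxin acts by removing repressors. Aux/IAA proteins bind ARF proteins, the DNA-binding auxin response factors, and hold auxin-responsive genes down; auxin joins an Aux/IAA protein to a TIR1/AFB receptor, and the repressor is then degraded. Many Aux/IAA and GH3 genes are themselves auxin-responsive. GH3 enzymes link amino acids to auxin or to jasmonate, and those that act on auxin help set how much free auxin a cell holds. Several members carry names from more than a single numbering, and the number that follows their order along the genome is used here.

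Signals are linear MAS5 values. A change is the difference OX minus WT of log2(signal + 3), with ± for its standard error, from limma over all 28456 probe sets whose mean signal reached 16.8. "Rose" and "fell" mark an adjusted p under 0.05 over all of these probe sets. The background was wide: 16.1% of the tested probe sets passed, and so did 19.1% of 14616 genes, each read from 1 probe set, 11.1% higher and 8.0% lower in OX. The leaf markers CAB2R, RCABP69, LHCP, rca and NIA1 were bright on every array, from 6932 to 13496 signal units in WT and 2306 to 10907 in OX. All but LHCP were lower on every OX array than on any WT array, and NIA1 differed most, with 7314 to 7648 in WT and 2306 to 2860 in OX. The root markers Lsi1, YSL15 and IRT1 gave 71.4 to 458 in WT and 17.0 to 194 in OX. Each of them was lower on every OX array than on any WT array. The meristem marker OSH1 gave 1.5 to 19.3 over all arrays. H2B.10, of dividing cells, gave 359 to 376 in WT and 612 to 756 in OX. The epidermis markers Roc2 and LTPL1 gave 684 to 719.8 and 1281 to 1356 in WT and 444 to 543 and 879 to 1146 in OX. RNA quality was read as the ratio of 3' to 5' signal in 6 pairs of control probe sets. In 2 of 3 actin pairs every OX array exceeded the WT arrays (3.25 to 7.29 against 2.38 to 3.11 in one, 2.16 to 3.40 against 1.53 to 2.01 in the other), and OX replicate 1 was highest. The third actin pair and the others overlapped, with cyclophilin at 1.58 to 1.75 in OX against 1.30 to 1.88 in WT, GAPDH at 3.36 to 4.65 against 4.25 to 5.18 and ubiquitin at 0.74 to 0.81 against 0.72 to 0.81. The part of these markers and ratios in the results was not tested. No gene in the annotation used here is named OsCGA1, so its own level was not analysed here.

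Of the 52 members, 39 were bright enough to be tested. Among 17 Aux/IAA genes 3 fell and 0 rose, among 16 ARF genes 2 fell and 0 rose, and among 6 GH3 genes 1 rose and 0 fell (limma). An unadjusted p under 0.05 (limma) was reached in either direction by 9406 of the 28456 probe sets and by 10 of the 39 members. By direction, 5 Aux/IAA genes were lower and 0 higher, 3 ARF genes lower and 1 higher, and 0 GH3 genes lower and 1 higher. The count over probe sets was not split by direction and is not read from 1 probe set per gene. The shares that passed in either direction, 17.6%, 12.5% and 16.7%, lay near or below the 19.1% of all tested genes. Taken by direction, 17.6% of Aux/IAA and 12.5% of ARF genes fell, against 8.0% of all tested genes. Of the GH3 genes 16.7% rose, against 11.1% of all tested genes. Each share rests on 3 genes or fewer, and no family was tested as a set. The groups did not overlap for 14 of the 39 members (35.9%), against 42.8% of all tested genes. Lower values were the more common: the log2 change was below 0 for 12 of 17 Aux/IAA, 11 of 16 ARF and 4 of 6 GH3 genes, against 51.6% of all tested genes. The family medians were -0.26, -0.21 and -0.16, beside -0.02 over all tested genes. Over all tested probe sets, 58.0% were below 0 and the median was -0.09. The GH3 median had no stable sign, at 0.087 with array weights, 0.009 without WT replicate 1 and 0.064 without OX replicate 2. In bulk leaf RNA, fewer cells of a type and less RNA per cell cannot be told apart.

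**Figure D1:**
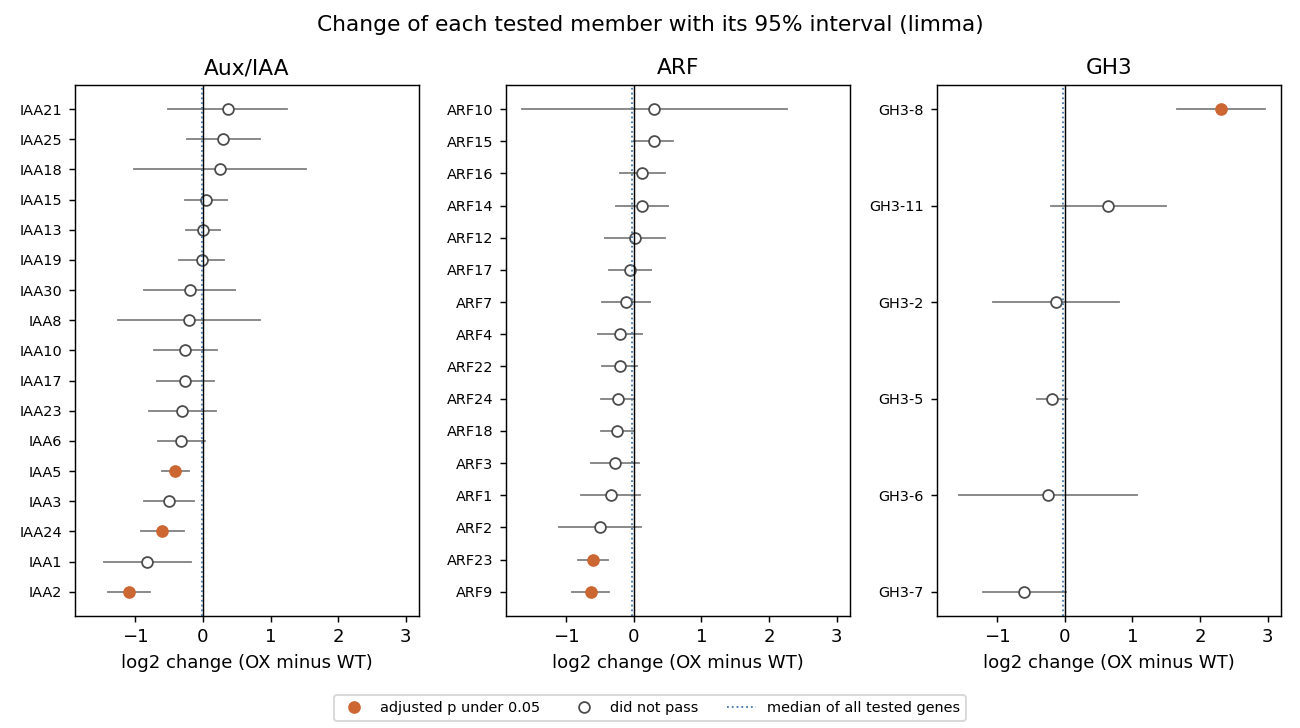
Log2 change (OX minus WT, horizontal axis) of each tested Aux/IAA, ARF and GH3 gene, with its 95% interval from limma as a line; filled points had an adjusted p under 0.05 and the dotted line is the median of all tested genes. GH3-8 stands far to the right at 2.31, and the filled Aux/IAA and ARF genes lie between -1.09 and -0.41.

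IAA2 (LOC4326775) had the largest fall of the Aux/IAA repressor genes. Its signals were 664, 542 and 505 on the WT arrays and 242, 265 and 291 on the OX arrays. Every OX array read well under every WT array. The WT arrays spread more widely than the OX arrays, with WT replicate 1 highest, and without it the change was -0.975. The fall was 1.09 ± 0.13 on the log2 scale (n = 3 per genotype, adjusted p 0.00249 from limma), or 2.13-fold. IAA2 passed in all 15 alternative settings, with adjusted p from 0.00112 to 0.0155.

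IAA24 (LOC4342573) read 254, 337 and 267 in WT and 202, 177 and 181 in OX. Here too the groups did not overlap, but WT replicate 2 alone stood well above the other WT arrays. The fall was 0.60 ± 0.14 (adjusted p 0.0249 from limma). The call ended in 5 of 15 settings, with adjusted p of 0.075, 0.0601 and 0.0821 without WT replicate 2, WT replicate 3 and OX replicate 3.

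IAA5 (LOC4325515, which also carries the name IAA8) read 1913, 1868 and 1776 in WT and 1361, 1376 and 1444 in OX. The arrays of each genotype lay close together and the groups were apart. The fall was 0.41 ± 0.085, with an interval of -0.61 to -0.21 (adjusted p 0.0175 from limma). The call ended in 4 of 15 settings, with adjusted p of 0.0638, 0.0649 and 0.0548 without WT replicate 1, WT replicate 2 and OX replicate 3.

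**Figure D2:**
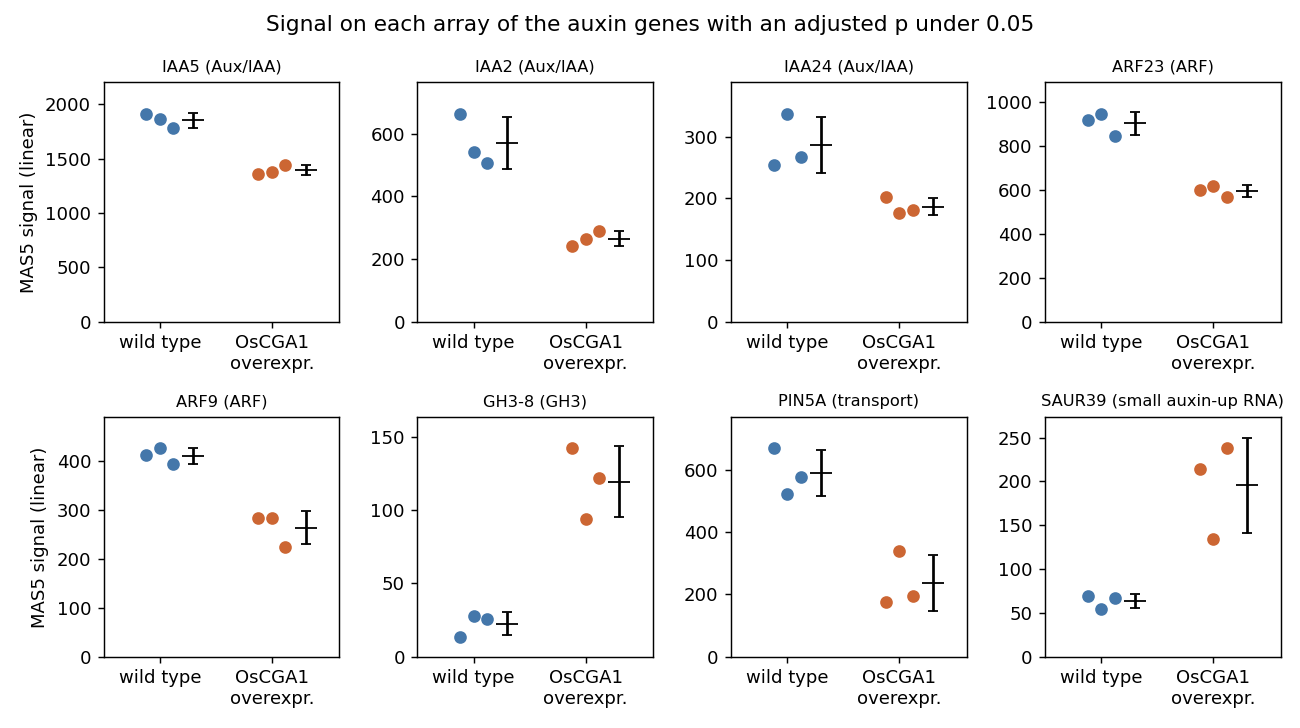
MAS5 signal (linear, from 0) on each array of the 8 auxin genes with an adjusted p under 0.05, by genotype; bars are the mean ± SD of 3 arrays. For every gene shown the WT points (left) and the OX points (right) do not overlap, and GH3-8 and SAUR39 are the genes with higher OX points.

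The remaining 14 tested Aux/IAA genes did not pass, with log2 changes from -0.82 to 0.37. The lowest was IAA1 (LOC4323871), at 329, 369 and 319 in WT and 298, 121 and 189 in OX. OX replicate 1 nearly reached the WT arrays while OX replicate 2 lay far below them. Its change was -0.82 ± 0.28 (adjusted p 0.0839 from limma), and it did not pass in 13 of 15 settings. Without OX replicate 1 it was -1.14 (adjusted p 0.0128), and without OX replicate 2 it was -0.51 (adjusted p 0.104). IAA3 (LOC4325890) had separate groups, 444, 395 and 360 in WT and 325, 224 and 303 in OX, and a change of -0.50 ± 0.16 with an adjusted p of 0.069. IAA6 (LOC4326541), studied in rice for drought tolerance and tillering, was also lower on every OX array, at -0.32 ± 0.15 (adjusted p 0.187).

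The highest Aux/IAA change, 0.37 ± 0.38 for IAA21 (LOC4340939), came from 1 array. Its signals were 323, 195 and 377 in WT and 689, 268 and 280 in OX, so only OX replicate 1 was above the WT arrays. IAA17 (LOC4338160) read 4812, 5258 and 5232 in WT and 5227, 3105 and 4723 in OX, where OX replicate 2 alone was far below the WT arrays (-0.26 ± 0.18, adjusted p 0.35). Its probe set is of a kind that can match several transcripts, so other Aux/IAA genes may share its signal. IAA13 (LOC4334069), in which stabilizing mutations impair lateral root formation in rice, read 1297, 1209 and 1419 in WT and 1163, 1373 and 1406 in OX. The genotypes overlapped almost entirely, and the interval of the change, -0.25 to 0.26, holds no shift larger than that in either direction. IAA15, IAA19, IAA25, IAA18, IAA30, IAA8, IAA10 and IAA23 also overlapped between the genotypes, with changes from -0.31 to 0.30.

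Aux/IAA signals differed among the OX arrays. OX replicate 2 was the lowest of the 6 arrays for 10 of the 17 tested Aux/IAA genes (58.8%), against 20.2% of all tested genes. For the ARF genes the share was 37.5%. The median deviation of the Aux/IAA genes from their WT mean was -0.01 on OX replicate 1, -0.61 on OX replicate 2 and -0.28 on OX replicate 3, while for all tested genes it was 0.00, -0.02 and -0.01. The family median of -0.26 depended on which OX arrays were kept: it was -0.04 without OX replicate 2 and -0.41 without OX replicate 1. IAA2, IAA5, IAA13 and IAA18 did not follow this order, since OX replicate 1 was their lowest OX array. Nor did IAA6, which was lowest on OX replicate 3.

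**Figure D3:**
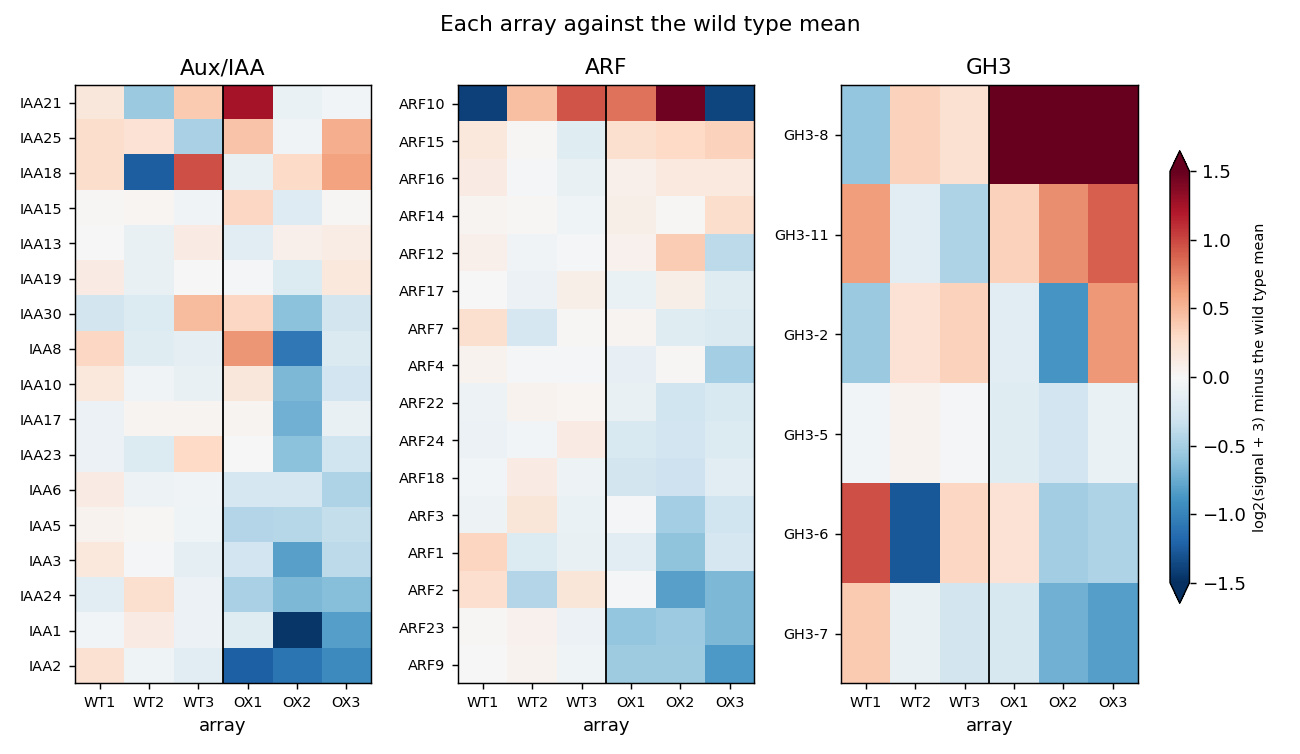
Difference of log2(signal + 3) on each array (columns, WT replicates 1 to 3 left of the line and OX replicates 1 to 3 right of it) from the WT mean of each tested gene (rows, by family); blue is lower, red is higher, and the colours stop at 1.5. In the Aux/IAA panel the OX replicate 2 column is the bluest, with a median of -0.61, while OX replicate 1 has a median of -0.01.

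The 9 Aux/IAA genes below the filter were IAA4, IAA7, IAA9, IAA12, IAA14, IAA16, IAA20, IAA26 and IAA31. Their signals ran from 0.3 to 25.1, and for none of them were the genotypes apart. The brightest, IAA31, lay just under the filter, at 15.3 on all WT arrays and 25.1, 17.9 and 9.8 in OX. IAA14 was dimmest, at 0.3 to 3.5 in WT and 0.3 to 0.5 in OX. Of the ARF genes ARF13 (3.1 to 16.4) and of the GH3 genes GH3-1, GH3-4 and GH3-9 (0.5 to 11.3) were below it too.

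ARF9 (LOC4335934) and ARF23 (LOC4350610) fell among the auxin response factors. ARF23, also called OsARF1 and known in rice as a partner of ARF24 in auxin-promoted growth, read 917, 948 and 847 in WT and 602, 619 and 566 in OX. All OX arrays lay well below the WT arrays, with little spread in either group. The fall was 0.60 ± 0.095 (adjusted p 0.00618 from limma), and ARF23 passed in all 15 settings. A second probe set of ARF23, of a kind open to cross-hybridization, fell as well, from 430, 458 and 370 to 209, 167 and 239, by 1.03 (adjusted p 0.00508).

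ARF9 read 413, 427 and 395 in WT and 283, 284 and 225 in OX, again without overlap. It fell by 0.64 ± 0.12 (adjusted p 0.0131 from limma). The call ended in 1 of 15 settings, without WT replicate 2, at an adjusted p of 0.0533.

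ARF24 (LOC4352211), the partner of ARF23, read 348, 360 and 404 in WT and 316, 304 and 320 in OX. The groups did not overlap, but the difference was small, at -0.24 ± 0.11, and did not pass (adjusted p 0.155). The same held for ARF18 (-0.25 ± 0.11, adjusted p 0.149) and ARF22 (-0.21 ± 0.12, adjusted p 0.242). ARF15 (LOC9268260, also OsETTIN1, a relative of the Arabidopsis flower development gene ETTIN) was the single ARF gene higher on every OX array. It read 246, 223 and 193 in WT and 260, 270 and 280 in OX, a change of 0.30 ± 0.12 that did not pass (adjusted p 0.137). ARF2 (LOC4325895), the other ETTIN relative, was at -0.50 ± 0.26 with overlapping groups (adjusted p 0.226).

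ARF4 (LOC4326957) read 895, 848 and 843 in WT and 789, 870 and 605 in OX. OX replicates 1 and 3 were below every WT array, OX replicate 3 by far the more, and OX replicate 2 lay inside the WT range. The change of -0.21 ± 0.14 did not pass (adjusted p 0.337 from limma). A second ARF4 probe set of nearly the same brightness was lower on every OX array, at -0.45, and did not pass either (adjusted p 0.0686). ARF10 (LOC4336419) had the highest ARF change, 0.30 ± 0.85, on signals of 2.5, 16.9 and 24.9 in WT and 22.6, 36.9 and 2.6 in OX. Its interval of -1.66 to 2.26 is too wide to show a difference, and its mean reached the filter in OX alone. The other ARF genes (ARF1, ARF3, ARF7, ARF12, ARF14, ARF16 and ARF17) overlapped between the genotypes, with changes from -0.34 to 0.12.

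GH3-8 (LOC4343785), which in rice joins auxin to aspartate and lowers free auxin, was the single riser of the 3 families. It read 13.3, 28.0 and 25.5 in WT and 142, 93.9 and 122 in OX. The lowest OX array was over 3 times the highest WT array. The rise was 2.31 ± 0.28 on the log2 scale (adjusted p 0.00246 from limma), or 4.96-fold. GH3-8 passed in all 14 settings that kept it. The WT signals were low, so the size of the rise depends on the pseudocount, with 1.95 at a pseudocount of 12 and 2.42 at 1.

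GH3-5 (LOC4339756) is JAR1, which joins jasmonate to isoleucine. It read 571, 609 and 582 in WT and 516, 479 and 549 in OX, slightly lower on every OX array. Its change of -0.19 ± 0.10 did not pass (adjusted p 0.215), and the interval of -0.41 to 0.04 holds no rise like that of GH3-8. GH3-2 (LOC4326893), an auxin-conjugating enzyme in rice like GH3-8, read 35, 61.8 and 68.3 in WT and 47.3, 27.3 and 84.9 in OX. These overlapped, with a change of -0.13 ± 0.40 (adjusted p 0.849). GH3-7 was at -0.60 ± 0.27 (adjusted p 0.161), the lowest GH3 change, on 56.4, 38.7 and 34.2 in WT and 35.2, 24.3 and 22.5 in OX, where OX replicate 1 alone was inside the WT range. GH3-11 (0.65 ± 0.37) and GH3-6 (-0.25 ± 0.57) did not pass, and each reached the filter by its mean in 1 genotype alone.

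The other auxin genes searched by name covered synthesis, transport, oxidation and small auxin-up RNAs, and no gene of the annotation carried a TIR1 or AFB receptor name. Of 9 on the array 6 were tested, 1 rose and 1 fell (33.3%, against 19.1% of all tested genes). With 6 genes tested this share is imprecise. SAUR39 (LOC9271092), a small auxin-up RNA gene that in rice restrains auxin synthesis and transport, read 69.3, 54.4 and 66.5 in WT and 214, 134 and 238 in OX. No OX array came near the WT range, and the rise was 1.55 ± 0.22 (adjusted p 0.00437 from limma). PIN5A (LOC4324368), a PIN-type auxin carrier, read 670, 525 and 576 in WT and 176, 340 and 196 in OX. OX replicate 2 was the highest of its group and still below every WT array, and the fall was 1.36 ± 0.24 (adjusted p 0.00883). SAUR39 and PIN5A passed in all 15 settings.

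DAO (LOC4336150), the dioxygenase that oxidizes auxin in rice, read 230, 235 and 158 in WT and 87.6, 139 and 139 in OX. The groups were separate and the change of -0.76 ± 0.23 just missed the threshold (adjusted p 0.0561), passing in 5 of 15 settings, among them without WT replicate 3 (0.0479) and without OX replicate 2 (0.0458). FIB (LOC4325198), a tryptophan aminotransferase of auxin synthesis, read 134, 98.8 and 118 in WT and 78.3, 96.4 and 70.7 in OX. Its change was -0.50 ± 0.17 (adjusted p 0.0883), and it passed with array weights (0.0218) and without OX replicate 2 (0.046). YUCCA1, a flavin monooxygenase of the same pathway, was at -0.67 ± 0.34 (adjusted p 0.211), and the carrier PIN3A at -0.35 ± 0.23 (adjusted p 0.319). A dimmer probe set of PIN3A, below the filter, was instead higher on every OX array than on any WT array.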

How the data were processed

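The deposited values are probe set intensities on a linear scale, which the authors computed with MAS5 (version not given in the sources used here), per the submitters' processing notes, from biotin-labelled cRNA of 5 µg total RNA. The mean of each array after trimming 2% at each end was 100.0, so the arrays were taken as scaled. Median signals were 16.8 to 18.7 on the WT arrays and 14.7 to 16.2 on the OX arrays, so every OX median was below every WT median. The part of this difference in the lower family medians was not tested. Detection calls were not used here, so changes of dim genes are uncertain, and the number of arrays limits the precision.

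Of 57381 probe sets, 187 controls were left out and 22436 had a single gene. Each gene was represented by its brightest probe set. Names came from the RefSeq table, which matched all 17905 genes by Entrez ID. Probe sets whose mean reached 16.8, the median signal without controls, were fitted as log2(signal + 3) with limma 3.58.1 in R 4.3.3 (genotype only, eBayes with variance trend, two-sided, Benjamini-Hochberg over 28456 probe sets). The code was tested on simulated data. Members and lists were chosen with earlier results of these data known. Named with every array's values were the members that passed, and the 3 brightest and the extreme changes of each family. Of the wider list these were the genes that passed, and the brightest of a role where none did. IAA1, IAA3 and ARF15 were added after their values were seen. Outside this rule, IAA31 and second probe sets of ARF23, ARF4, IAA1, YUCCA1 and PIN3A are also given by array. Alternatives were other pseudocounts (1 and 12), filters, quantile normalization, no trend, array weights, a replicate block, averaging the probe sets of a gene, and leaving out each array. Same-numbered arrays of the 2 genotypes did not deviate together, so the numbers were not taken as pairs.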

Additional observations from a re-analysis of the deposited data

How the results depend on the processing

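Directions of the 8 genes that passed held in every setting in which they were tested. Of all probe sets 4578 passed, 7945 with array weights, and 2230 to 5533 when 1 array was left out; 2408, 2287, 2483 and 2230 passed without WT replicates 1, 2 and 3 and OX replicate 3. For the Aux/IAA genes the count of 3 became 1 with no variance trend and 5 with array weights (IAA1 and IAA3 joining), and 1 to 4 when 1 array was left out, with 1 without WT replicate 2 and 1 without OX replicate 3. The ARF count of 2 ran from 1 to 2 (1 without WT replicate 2), and that of the other auxin genes from 2 to 4, with 4 under array weights and without OX replicate 2. The stricter filter (mean signal of at least 91.5) left 1 GH3 gene, GH3-5, and a count of 0 since GH3-8 was not tested there. When 1 array was left out, the median changes ran from -0.41 to -0.037 (Aux/IAA), -0.24 to -0.14 (ARF) and -0.19 to 0.064 (GH3), and the GH3 median was 0.087 with array weights. It was 0.009 without WT replicate 1 and 0.064 without OX replicate 2. Under quantile normalization the medians were -0.166 (Aux/IAA), -0.238 (ARF) and -0.072 (GH3), and the change of IAA17 went from -0.263 to -0.013.

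Only genes that did not pass changed sign: under quantile normalization IAA13 (-0.003) and ARF12 (-0.012), with array weights IAA19 (0.095), ARF10 (-0.78), ARF12 (-0.22) and GH3-2 (0.31), and with the probe sets of a gene averaged PIN3A (0.60). Leaving out 1 array gave ranges across 0 for IAA8 (-0.64 to 0.22), IAA13 (-0.051 to 0.09), IAA15 (-0.085 to 0.16), IAA18 (-0.36 to 0.74), IAA19 (-0.11 to 0.074), IAA21 (-0.072 to 0.60) and IAA30 (-0.45 to 0.042). The same held for ARF7 (-0.24 to 0.002), ARF10 (-0.40 to 1.14), ARF12 (-0.16 to 0.22), GH3-2 (-0.52 to 0.25) and GH3-6 (-0.89 to 0.23). The cause of these shifts was not tested.

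With the replicate number as a block, 3342 probe sets and 2 Aux/IAA genes passed, and IAA24 did not (adjusted p 0.0608 from limma); it changed no other call among the named genes. Deviations of same-numbered arrays correlated at 0.097, -0.013 and -0.056 over probe sets, so the numbers show no pairing. Without scanner files the signal over background is unknown, which limits the dim members most.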

Other observations

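Members with a second tested probe set allow a check within the gene. For ARF4 the second probe set read 820, 927 and 982 in WT and 586, 811 and 611 in OX, lower on every OX array, with a log2 change of -0.45 (adjusted p 0.0686 from limma), while the brighter one overlapped at -0.21. For ARF2 the second probe set was at -0.22 (adjusted p 0.48) beside -0.50, and for IAA23 at -0.11 (adjusted p 0.778) beside -0.31. A dim second probe set of IAA1, below the filter, read 21.6, 22.3 and 13.0 in WT and 13.3, 4.3 and 4.4 in OX. Of the other auxin genes, YUCCA1 and PIN3A also had a second probe set below the filter. That of YUCCA1 was lower in OX, at 10.9, 10.6 and 11.3 in WT and 5.9, 1.0 and 5.2 in OX. That of PIN3A went against its brighter probe set, at 9.4, 2.8 and 3.8 in WT and 15.7, 21.2 and 24.2 in OX.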
